A study of Macaca fascicularis with 64 samples.

Results

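The genes described here are 9 ion channel genes of hormone secretion: KCNJ11 and ABCC8 (the pore and the regulatory subunit of the ATP-sensitive potassium channel), KCNK16 and KCNH2 (a potassium leak channel of the pancreas and the hERG potassium channel), CACNA1A, CACNA1C and CACNA1D (pores of voltage-gated calcium channels), and SCN3A and SCN9A (pores of voltage-gated sodium channels). They were chosen by name, and all 9 were present among the 21041 macaque genes of the count tables. The samples were islet cells of 16 cynomolgus monkeys (Macaca fascicularis), none genetically modified or treated according to the labels. There were 8 young animals of 4 to 6 years and 8 old animals of 18 to 21 years, 4 of each sex at each age. Islets came only from the tail part of the pancreas and were dissociated, and single cells were picked by mouth pipette, sequenced with unique molecular identifiers (UMIs) in 4 libraries per monkey, and counted per gene. Tissue was taken on 16 days, 1 monkey a day, so monkey and day cannot be told apart.

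In islet cells these channels couple metabolism to secretion. When glucose is metabolised, the rise in ATP closes ATP-sensitive potassium channels, the membrane depolarises, sodium and calcium channels open, and the calcium that enters triggers the release of hormone granules. Other potassium channels set the resting potential and end each action potential, and α-cells use many of the same channels as β-cells.

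Filters of over 800 detected genes and over 10000 UMIs left 5908 of 6141 barcodes, or 338 to 381 cells per monkey, at a median of 65792 UMIs per cell. A cell's type was set by its highest hormone transcript, which gave 4503 α-cells (GCG), 1219 β-cells (INS), 112 δ-cells (SST) and 74 PP-cells (PPY). The counts of all cells of 1 type in 1 monkey were added up, and sums of at least 5 cells were used: 16 of α-cells, 16 of β-cells, 11 of δ-cells (7 young, 4 old) and 6 of PP-cells (2 young males, 4 old). Levels are UMIs per 1000000 UMIs of macaque genes in a sum (CPM), each monkey counting once. CPM is not divided by transcript length, and levels of different genes are not set against each other.

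The type labels were checked against markers other than the hormones. The summed β-cell markers lay between 1793 and 5637 CPM in β-cells and between 75.1 and 260.1 CPM in α-cells, and 6 of 7 had their highest mean in β-cells. All 5 δ-cell markers were highest in δ-cells. For PP-cells 3 of 5 markers (UGT2B20, ETV1 and SERTM1) were highest in PP-cells, and their summed level, 268 to 921 CPM, did not overlap the 95.5 to 227 CPM of α-cells but overlapped that of δ-cells (145 to 728 CPM) and of β-cells (155 to 276 CPM). The separation of hormones was incomplete. GCG had a median of 21060 CPM in the β-cell sums against 75335 CPM in the α-cell sums, and the highest hormone was at least 4 times the next in 93.4% of α-cells, 31.5% of β-cells, 35.7% of δ-cells and 10.8% of PP-cells. The calls of β- against α-cells are therefore given again for cells with such a clear hormone, which left 377 β-cells of 11 monkeys. For δ-cells this left 16 cells in 2 sums, too few to read a call that was missed as a change. The fits with at least 20 cells per sum, also named below, held 16 sums of α-cells, 15 of β-cells and 1 of PP-cells, the lone PP-cell sum being assumed to vary like the others.

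**Figure D1:**
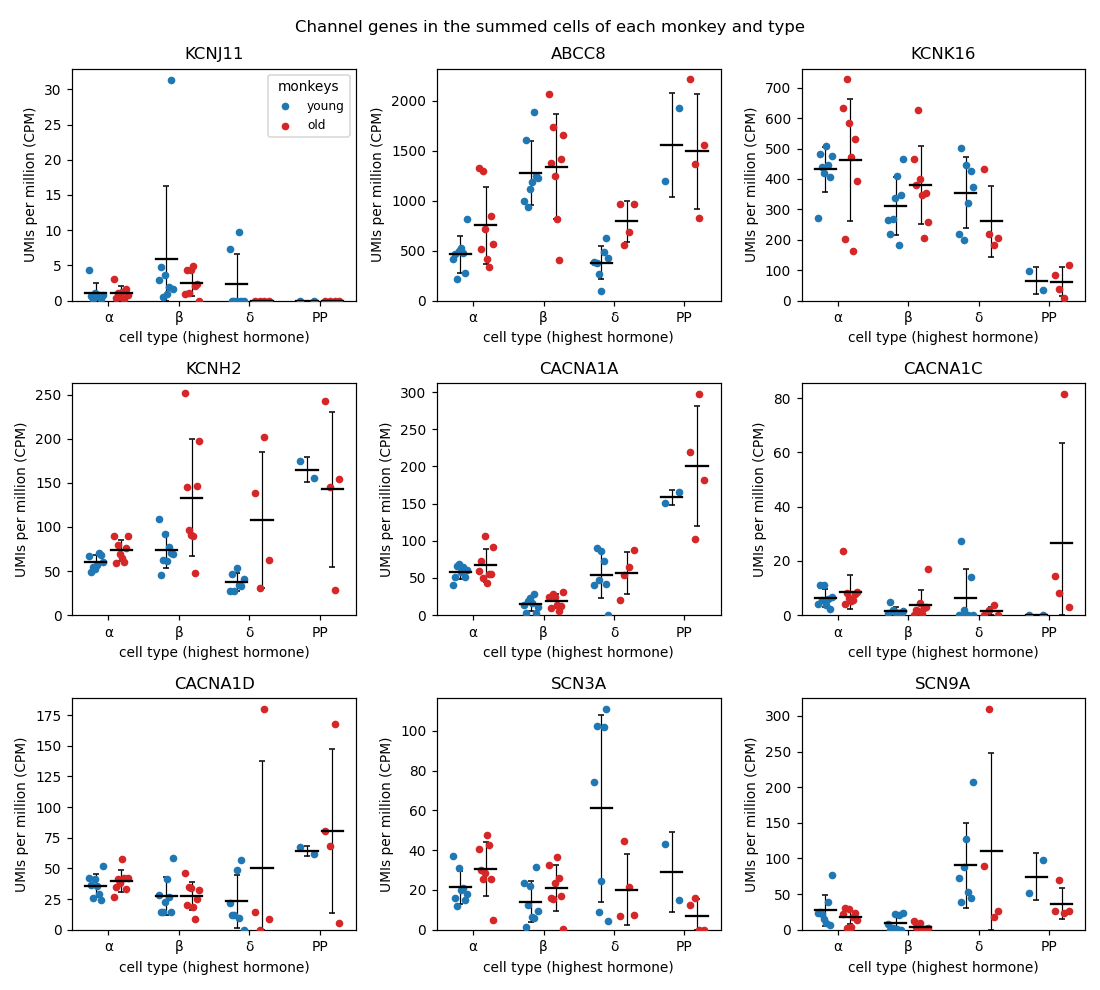
Levels of the 9 channel genes in CPM (vertical axes, each from 0) in the sums of each monkey for α-, β-, δ- and PP-cells (horizontal axes). Points are monkeys, blue young and red old, thick lines are group means and error bars are SD, stopped at 0. ABCC8 was higher in β- and PP-cells than in α-cells, CACNA1A was lowest in β-cells, SCN9A was highest in δ-cells, and young and old points overlapped in α- and β-cells in every panel.

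The first question was how the channel genes differed between cell types of the same monkeys. Between β- and α-cells, ABCC8 was higher in β-cells, and CACNA1A, CACNA1C and SCN9A were lower. These 4 of the 9 genes passed the test (edgeR quasi-likelihood test with Benjamini-Hochberg adjustment over all genes, adjusted p under 0.05), 1 higher and 3 lower. Of all 14648 genes tested, 25.7% passed, and the median log2 difference was -0.52 for the 9 genes and -0.20 for all genes.

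ABCC8, which encodes the sulfonylurea receptor subunit and gates the channel by nucleotides, ranged in the 16 β-cell sums from 405 to 2065 CPM with a median of 1247, and in the 16 α-cell sums from 212 to 1330 CPM with a median of 506. The ranges overlapped, but β-cells were above α-cells in 16 of 16 monkeys. The mean was 1308 ± 422 CPM (SD, n = 16) in β-cells and 607 ± 326 CPM (SD, n = 16) in α-cells, a log2 difference of 1.18 ± 0.16 (standard error), or 2.26-fold (edgeR adjusted p = 4.47e-08). In cells with a clear highest hormone the log2 difference was 0.74 (edgeR adjusted p = 0.000758). PP-cells had 829 to 2215 CPM with a median of 1461 and were above α-cells in 6 of 6 monkeys, with a log2 difference of 1.21 ± 0.22 (edgeR adjusted p = 0.000266). δ-cells had 94.1 to 971 CPM with a median of 485 and lay below β-cells in 10 of 11 monkeys, the exception being old male 2. The log2 difference of β- minus δ-cells was 1.38 ± 0.19 (edgeR adjusted p = 1.55e-07) and that of δ- minus PP-cells was -1.41 ± 0.23 (edgeR adjusted p = 2.9e-05). The order of means was PP, β, α and δ. PP did not differ from β beyond the spread (edgeR adjusted p = 0.939), and neither did α from δ (edgeR adjusted p = 0.452).

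KCNJ11, the potassium-conducting pore that pairs with ABCC8, was close to the limit of detection. It had 348 UMIs in 4503 α-cells and 335 in 1219 β-cells. The α-cell sums ranged from 0.157 to 4.34 CPM with a median of 0.737, and the β-cell sums from 0 to 31.4 CPM with a median of 2.21. The highest β-cell value, in young male 3, came from a single cell that held all 77 UMIs of that monkey's 44 β-cells. The other 7 young monkeys had 2.30 ± 1.54 CPM (SD, n = 7). β-cells were above α-cells in 13 of 16 monkeys, with a log2 difference of 1.57 ± 0.62 that missed the threshold (edgeR adjusted p = 0.0553). It passed without old female 1, old female 3, old male 4 or young male 1 (edgeR adjusted p from 0.0184 to 0.0485), and with DESeq2, without cells of most UMIs or without the monkey block (adjusted p from 0.0107 to 0.0323), and was 0.42 in cells with a clear hormone (edgeR adjusted p = 0.77). The 6 PP-cell sums held 0 UMIs, and 9 of 11 δ-cell sums were at 0. Pooled over sums, β-cells were 3.71-fold above a floor of 3 counts over the PP-cell sums, with 77 of their 335 UMIs in 1 cell. The test of β against PP passed (edgeR adjusted p = 0.0453) but was lost in 5 other settings (adjusted p from 0.0534 to 0.38). It was also lost without any 1 of 12 monkeys (all but old female 3, old male 3, young female 1 and young male 3) (edgeR adjusted p from 0.0518 to 0.137). In old male 3, 1 PP-cell outside the sums had 10 UMIs, so the floor does not bound PP-cells as a whole.

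KCNK16, a potassium leak channel expressed mainly in the pancreas, was lowest in PP-cells. The PP-cell sums ranged from 9.59 to 117 CPM with a median of 61.5, and the α-cell sums from 163 to 727 CPM with a median of 460. No PP-cell sum reached the lowest sum of α-, β- or δ-cells. The log2 difference of PP- minus α-cells was -2.71 ± 0.27 (edgeR adjusted p = 7.21e-10), that of β- minus PP-cells 2.37 ± 0.27 (edgeR adjusted p = 3.03e-09) and that of δ- minus PP-cells 2.21 ± 0.28 (edgeR adjusted p = 1.28e-07). β-cells had 183 to 626 CPM with a median of 347, below α-cells in 14 of 16 monkeys, and the log2 difference of -0.35 ± 0.16 missed the threshold (edgeR adjusted p = 0.0975) except without old female 2 (edgeR adjusted p = 0.0370) or with at least 20 cells per sum (edgeR adjusted p = 0.0253). δ-cells had 184 to 503 CPM with a median of 320. Their log2 difference from α-cells was -0.50 ± 0.18 (edgeR adjusted p = 0.0417), close to the median of all genes in that comparison, -0.57. It was -0.23 with relative log expression (RLE) size factors (edgeR adjusted p = 0.423), it was lost in 8 of the other settings, this one included (adjusted p from 0.0539 to 0.68), and leaving out any 1 of 9 monkeys also lost it (edgeR adjusted p from 0.0521 to 0.1), namely old female 1 or 4, old male 1, 3 or 4, young female 1, 3 or 4, or young male 1. The order of means was α, β, δ and PP, and β did not differ from δ beyond the spread (edgeR adjusted p = 0.603).

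KCNH2, the hERG channel that helps to repolarise the membrane, had its highest mean in PP-cells and its lowest in δ-cells. Against α-cells, δ-cells were lower in 8 of 11 monkeys. That log2 difference, -0.39 ± 0.28, missed the threshold (edgeR adjusted p = 0.31). It passed without cells of most UMIs (-1.37, edgeR adjusted p = 0.000595) or without old male 2 (-0.70, edgeR adjusted p = 0.0253). The highest δ-cell levels were in old male 2 (202 CPM) and old female 1 (139 CPM). In old female 1, a single δ-cell held 95 of the 98 UMIs. The sums ranged from 28.8 to 242 CPM with a median of 154 in PP-cells, from 45.0 to 252 CPM with a median of 90.3 in β-cells, from 49.4 to 89.2 CPM with a median of 65.9 in α-cells and from 27.2 to 202 CPM with a median of 40.5 in δ-cells. All ranges overlapped. β-cells were above δ-cells in 9 of 11 monkeys, with a log2 difference of 0.88 ± 0.28 (edgeR adjusted p = 0.0218), which fell to 0.62 with RLE size factors (edgeR adjusted p = 0.143) and was lost with DESeq2 or the stricter cell filter as well (adjusted p at least 0.0565) and without old female 2, old male 4 or young female 1 (edgeR adjusted p from 0.0612 to 0.0785). δ-cells were below PP-cells in 4 of 5 monkeys, with a log2 difference of -1.32 ± 0.36 (edgeR adjusted p = 0.0133), lost without old female 2 or young male 1 (edgeR adjusted p from 0.0536 to 0.0875). It was lost as well without 48 cells that resembled non-endocrine cells, described further on (log2 difference -1.05, edgeR adjusted p = 0.092). β-cells were above α-cells in 14 of 16 monkeys, but that log2 difference, 0.49 ± 0.22, missed the threshold (edgeR adjusted p = 0.1) except without old male 2 (edgeR adjusted p = 0.0210) with at least 20 cells per sum (edgeR adjusted p = 0.00199) or without the monkey block (edgeR adjusted p = 0.0494). PP-cells were above α-cells in 5 of 6 monkeys, with a log2 difference of 0.93 ± 0.33 that missed the threshold (edgeR adjusted p = 0.0795) but passed with RLE size factors, DESeq2 or no monkey block (adjusted p from 0.00608 to 0.0351) or without old male 2 (1.21, edgeR adjusted p = 0.00704).

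CACNA1A, the pore of the P/Q-type calcium channel, separated β-cells from α-cells without overlap. The β-cell sums ranged from 2.45 to 31.5 CPM with a median of 14.4, and the α-cell sums from 40.9 to 106 CPM with a median of 58.4. β-cells were lower in 16 of 16 monkeys, with means of 16.6 ± 9.35 CPM and 62.3 ± 17 CPM (SD, n = 16 each) and a log2 difference of -2.08 ± 0.27 (edgeR adjusted p = 3.21e-08). In cells with a clear hormone it was -1.62 (edgeR adjusted p = 0.000788). PP-cells had the highest values, 103 to 297 CPM with a median of 174, above α-cells in 6 of 6 monkeys. The log2 difference of PP- minus α-cells was 1.5 ± 0.38 (edgeR adjusted p = 0.0101), and after every cell was thinned to 10000 UMIs it was 0.87 (edgeR adjusted p = 0.13). No PP-cell sum overlapped the sums of β-cells (log2 difference of β- minus PP-cells -3.58 ± 0.38, edgeR adjusted p = 4.2e-10) or of δ-cells (δ- minus PP-cells -2.03 ± 0.41, edgeR adjusted p = 0.00062). δ-cells had 0 to 90.5 CPM with a median of 53.8 and were above β-cells in 9 of 11 monkeys (β- minus δ-cells -1.55 ± 0.32, edgeR adjusted p = 0.00037). In cells with a clear hormone, with 2 δ-cell sums, it was -0.84 (edgeR adjusted p = 0.541). The order of means was PP, α, δ and β, and only α and δ did not differ beyond the spread (edgeR adjusted p = 0.23).

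CACNA1C and CACNA1D encode pores of L-type calcium channels. CACNA1C was low in every type. Its α-cell sums ranged from 2.14 to 23.6 CPM with a median of 6.12, and its β-cell sums from 0 to 16.9 CPM with a median of 1.57, lower in 15 of 16 monkeys. The log2 difference of β- minus α-cells was -2.09 ± 0.57 (edgeR adjusted p = 0.00426), and in cells with a clear hormone -3.96 (edgeR adjusted p = 0.000365). In β-cells it rested on 217 UMIs, of which old male 4, the exception, gave 28. Its δ-cell sums ranged from 0 to 27.5 CPM with a median of 0, and its PP-cell sums from 0 to 81.5 CPM with a median of 5.43. None of its other comparisons between types passed in the main fit. With DESeq2 or no monkey block, β- against PP-cells passed (adjusted p from 0.0150 to 0.0153), as it did without old male 4 or young male 4 (edgeR adjusted p from 0.0146 to 0.0475). Without young female 2 or young male 2, δ- against α-cells passed (edgeR adjusted p from 0.0212 to 0.0319). CACNA1D was detected more evenly. Its sums ranged from 24.2 to 57.3 CPM with a median of 37.0 in α-cells, from 8.55 to 58.5 CPM with a median of 25.8 in β-cells, from 0 to 180 CPM with a median of 12.2 in δ-cells and from 5.69 to 168 CPM with a median of 67.7 in PP-cells. All 4 ranges overlapped. None of its 6 comparisons between types passed in the main fit. The log2 difference of β- minus α-cells was -0.52 ± 0.34 (edgeR adjusted p = 0.291), which passed with at least 20 cells per sum (edgeR adjusted p = 0.0223). With DESeq2 or no monkey block, β- against PP-cells passed (adjusted p from 0.0264 to 0.0430). With DESeq2 or without cells of most UMIs, δ- against PP-cells passed (adjusted p from 0.0281 to 0.0323), as it did without old male 2 or young male 2 (edgeR adjusted p from 0.0301 to 0.0498). Without old male 2, δ- against α-cells passed (edgeR adjusted p = 0.0188).

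SCN9A and SCN3A, sodium channel pores that carry the upstroke of action potentials, gave different orders. SCN9A was highest in δ-cells, with 18 to 310 CPM and a median of 72.6. It had 24 to 97.8 CPM with a median of 38.9 in PP-cells, 3.14 to 76.2 CPM with a median of 22.4 in α-cells and 0 to 24.2 CPM with a median of 2.34 in β-cells. δ-cells were above β-cells in 11 of 11 monkeys (log2 difference of β- minus δ-cells -4.09 ± 0.49, edgeR adjusted p = 8.76e-09) and above α-cells in 10 of 11 (δ- minus α-cells 1.73 ± 0.48, edgeR adjusted p = 0.00682). In cells with a clear hormone, with 2 δ-cell sums, the latter was 1.33 (edgeR adjusted p = 0.456). β-cells were below α-cells in 15 of 16 monkeys (-2.36 ± 0.42, edgeR adjusted p = 1.77e-05) and below PP-cells in 6 of 6 (-3.33 ± 0.60, edgeR adjusted p = 5.83e-05). In cells with a clear hormone the difference of β- minus α-cells was -2.06 (edgeR adjusted p = 0.00713). δ and PP did not differ beyond the spread (edgeR adjusted p = 0.4933), nor did PP and α (edgeR adjusted p = 0.326). SCN3A ranged from 4.74 to 47.6 CPM with a median of 25.4 in α-cells, from 0.605 to 36.7 CPM with a median of 16.4 in β-cells, from 4.27 to 111 CPM with a median of 24.5 in δ-cells and from 0 to 43.0 CPM with a median of 13.6 in PP-cells. None of its comparisons between types passed. The smallest adjusted p, for β- minus δ-cells at a log2 difference of -1.18 ± 0.50, was 0.0946 (edgeR), and it passed with RLE size factors, DESeq2 or the stricter cell filter (adjusted p from 0.0046 to 0.039) and without old female 1 or young male 3 (edgeR adjusted p from 0.0262 to 0.0328).

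Counted by comparison, 2 of the 9 genes passed for δ- against α-cells (22.8% of all genes), 3 for PP- against α-cells (6.32%), 4 for β- against δ-cells (18%), 4 for β- against PP-cells (15.6%) and 4 for δ- against PP-cells (8.86%). The choice of scaling mattered for δ- and PP-cells. The median log2 difference of all genes was -0.57 for δ- minus α-cells and -0.49 for PP- minus α-cells with the trimmed mean of M-values (TMM), and -0.31 and -0.27 with RLE size factors. The share of all calls that were higher in the first type changed from 16.8% to 32.7% for δ against α, from 23.4% to 45.3% for PP against α, from 72.45% to 51.4% for β against δ and from 61.2% to 43.5% for β against PP. All calls of the 9 genes kept their direction under both scalings.

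**Figure D2:**
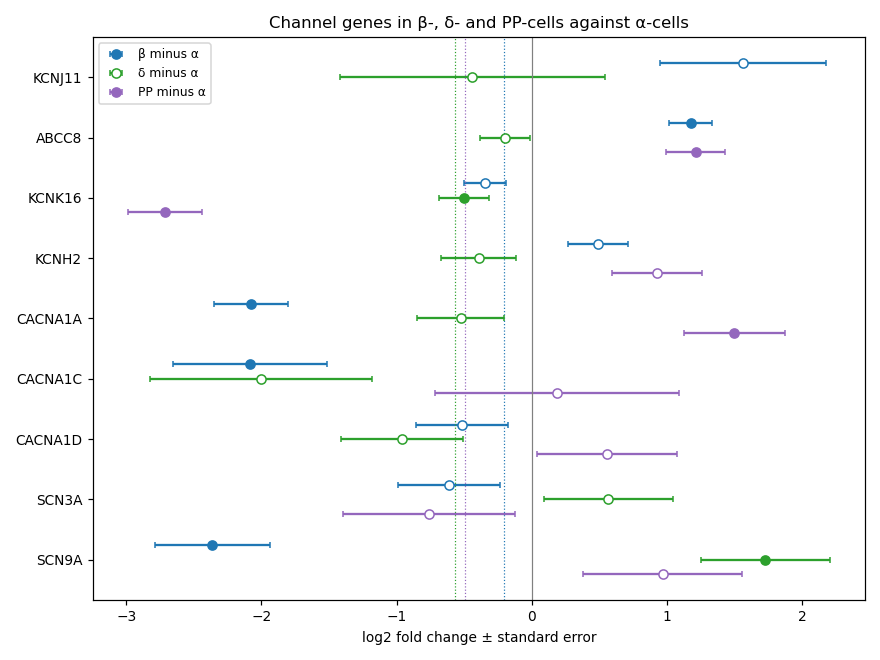
Log2 fold change (horizontal axis) of each channel gene (vertical axis) in β-, δ- and PP-cells against α-cells, with standard errors as bars. Filled points passed the test, open points did not, and dotted lines mark the median of all genes in each comparison. KCNJ11 in PP-cells, at 0 UMIs, is left out. ABCC8 lay to the right for β- and PP-cells, CACNA1A to the left for β-cells (-2.08) and to the right for PP-cells (1.5), and KCNK16 at -2.71 for PP-cells.

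Detection in single cells was read against 48 retained cells whose highest marker list was one of stellate, endothelial, Schwann, immune or acinar cells. Islet channel genes were not absent from them. Their pooled level was 608 CPM for ABCC8, 233 CPM for KCNK16 and 99.9 CPM for KCNH2, with 0 UMIs of KCNJ11 and 1.30 CPM of SCN9A. They also held 29759 CPM of GCG and 16599 CPM of INS, and by hormone 35 of them counted as α-cells and 10 as β-cells. A UMI of ABCC8 was found in 91.7% of them (exact 95% interval 80.0 to 97.7%, median 31284 UMIs per cell), against 97.6% of α-cells (97.1 to 98.0%, median 64894 UMIs) and 99.3% of β-cells (98.6 to 99.7%, median 74425 UMIs). The share lay above that of the non-endocrine-like cells, without overlap of the intervals, in 12 of 36 pairs of gene and type. These were ABCC8 in β-cells, KCNK16 in α- and β-cells, KCNH2 in β-cells, CACNA1A in α- and PP-cells, CACNA1D in α-, β- and PP-cells, and SCN9A in α-, δ- and PP-cells. No such count was made over all genes, and the non-endocrine-like cells were shallower. The counts given here and below therefore do not tell channel genes from other genes. In the other pairs the share did not lie above in this way. That does not place them at background, since the 48 cells held islet transcripts and also stayed in the shares of their types by hormone. The intervals take cells, not monkeys, as units and cover counting error only. Of the 48 cells, 11 came from young female 1 and 9 from old male 1.

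After each cell was thinned to 10000 UMIs, which left out 45 shallower cells and kept 4464 α-, 1213 β-, 112 δ- and 74 PP-cells, 10 of the 36 shares lay above. CACNA1D in α- and β-cells and SCN9A in α- and PP-cells no longer did, while ABCC8 in α- and PP-cells now did. CACNA1A had a UMI in 28.5% of α-cells (27.2 to 29.9%), 11.6% of β-cells (9.87 to 13.6%) and 51.4% of PP-cells (39.4 to 63.1%), against 8.89% (2.48 to 21.2%) of the non-endocrine-like cells. Without thinning these shares were 54.9%, 31.5%, 64.9% and 22.9%. ABCC8 had a UMI in 98.2% of β-cells, 88.8% of α-cells and 62.2% of the non-endocrine-like cells after thinning. SCN9A had one in 24.1% of δ-cells (16.5 to 33.1%, 35.7% without thinning), against 5.69% of β-cells and 4.44% of the non-endocrine-like cells. KCNK16 had one in 35.1% of PP-cells (75.7% without thinning), below the 55.6% (75.0% without thinning) of the non-endocrine-like cells, and the intervals overlapped (24.4 to 47.1% and 40.0 to 70.4%), so that its share there could not be told apart from the background. KCNJ11 was found in 2.06% of β-cells and 0.627% of α-cells after thinning, and in 5.5% and 2% before. A count of 0 in 45 non-endocrine-like cells allows up to 6.67% by the limit of 3 counts and up to 7.87% by the exact interval. Shares as low as those of KCNJ11 could not have exceeded these limits, so this comparison cannot decide whether it was above background.

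**Figure D3:**
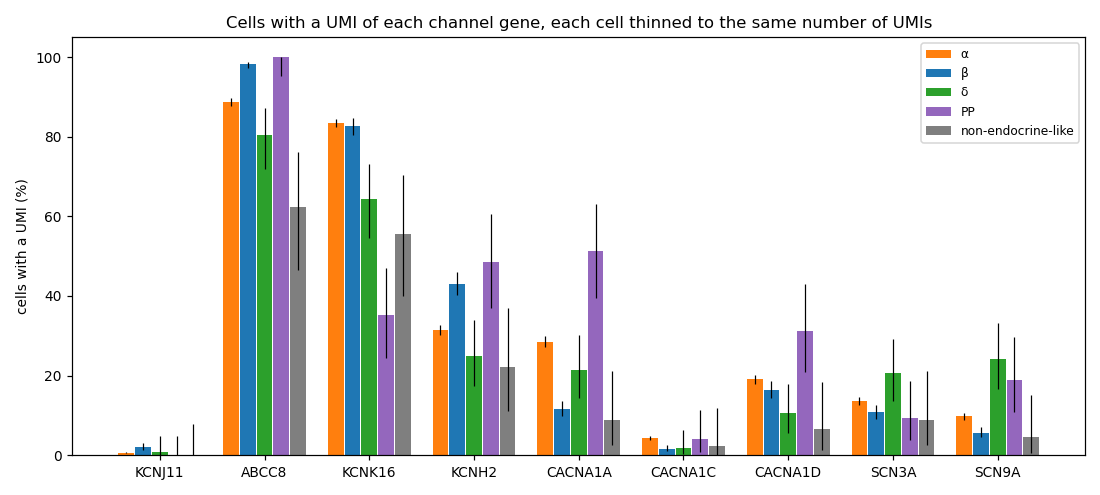
Share of cells with at least 1 UMI of each channel gene (vertical axis, percent) in α-, β-, δ-, PP- and non-endocrine-like cells, each cell thinned to 10000 UMIs. Bars are shares and lines are exact 95% intervals. ABCC8 and KCNK16 were found in most cells of every type except KCNK16 in PP-cells (35.1%), and CACNA1A was found in 28.5% of α-cells and 11.6% of β-cells.

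The second question was whether the channel genes differed between young and old monkeys within a type. None did by the test. In α-cells 0 of 9 passed, as did 0% of all 13486 genes tested, and 2 of the 9 had an unadjusted p under 0.05 (920 of all genes). In β-cells 0 of 9 passed against 0.045% of 11101 genes, and 1 of the 9 had an unadjusted p under 0.05 (613 of all genes). In δ-cells 0 of 7 tested passed and in PP-cells 0 of 6, as did 0% of all genes in both. KCNJ11 and CACNA1C were too low to be tested for age in δ- and PP-cells, and SCN3A in PP-cells. DESeq2 called 0 of them as well in each type.

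The largest shift in α-cells was that of ABCC8. Young α-cells ranged from 212 to 818 CPM with a median of 469, and old α-cells from 338 to 1330 CPM with a median of 637. The ranges overlapped, and 3 old monkeys lay above every young one. The log2 difference of old minus young was 0.63 ± 0.29 (edgeR adjusted p = 0.719, unadjusted edgeR p = 0.0407). In the same sums INS had a median of 6038 CPM in young and 7279 CPM in old monkeys, and the summed β-cell markers 91.8 and 110 CPM, whose part in the difference was not tested. In β-cells ABCC8 ranged from 936 to 1888 CPM in young and from 405 to 2065 CPM in old monkeys, with medians of 1210 and 1397 and a log2 difference of 0.02 ± 0.22 (edgeR adjusted p = 1.00). The difference between these age effects, β minus α, was -0.67 ± 0.21 (edgeR adjusted p = 0.662, unadjusted edgeR p = 0.00448), and 0 of the 9 genes passed this test of type by age, as did 0% of all 15441 genes. In δ-cells ABCC8 was 794 ± 206 CPM (SD, n = 4) in old and 379 ± 169 CPM (SD, n = 7) in young monkeys, a log2 difference of 1.07 ± 0.37 (edgeR adjusted p = 1.00). The 4 old values were 559, 684, 962 and 971 CPM and the young values reached 628 CPM, so that 3 of the 4 old monkeys lay above every young one. The value of 962 CPM, in old female 1, rested mostly on 1 cell, which held 486 of the 680 UMIs of 7 δ-cells.

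KCNH2 had the most uniform age difference in β-cells. The young ranged from 45.0 to 108 CPM with a median of 69.8, and the old from 48.2 to 252 CPM with a median of 121. Of the 8 old monkeys, 4 lay above every young one. The log2 difference was 0.81 ± 0.24 (edgeR adjusted p = 0.49, unadjusted edgeR p = 0.00295), with 0.85 ± 0.35 in females and 0.78 ± 0.35 in males. In α-cells it was 59.9 ± 7.87 CPM in young and 73.4 ± 11.9 CPM in old monkeys (SD, n = 8 each), a log2 difference of 0.27 ± 0.11 (edgeR adjusted p = 0.71). The median of the monkeys' median UMIs per β-cell was 64325 in young and 75900.5 in old monkeys, and the part of depth in these differences was not tested.

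SCN9A went the other way in β-cells, with 0 to 24.2 CPM and a median of 5.32 in young and 0.169 to 12.5 CPM and a median of 1.53 in old monkeys. The log2 difference was -1.91 ± 0.95 (edgeR adjusted p = 0.922), and 951 UMIs carried it in all. By sex it was -0.48 ± 1.12 in females and -3.59 ± 1.29 in males. The interaction of sex and age, -3.11 ± 1.67, did not pass (unadjusted edgeR p = 0.0754). The α-cell levels of SCN9A were 27.2 ± 22.1 CPM in young and 18.1 ± 10.4 CPM in old monkeys (SD, n = 8 each), a log2 difference of -0.61 ± 0.49 (edgeR adjusted p = 0.853), with the highest value, 76.2 CPM, in young male 4. For the calcium pores and KCNK16 the log2 differences in α-cells lay between 0.05 and 0.41 and in β-cells between -0.02 and 1.42, all within overlapping ranges. The last, of CACNA1C, was 0.68 without old male 4. SCN3A gave 0.55 ± 0.34 in α-cells and 0.56 ± 0.51 in β-cells (edgeR adjusted p = 0.811 and 0.986), and KCNJ11 gave 0.12 ± 0.65 and -1.004 ± 0.84, the latter 0.35 without young male 3. In β-cells with a clear hormone SCN3A gave 2.46 and SCN9A -4.17, also short of the threshold (edgeR adjusted p = 1.00 each).

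Age effects were also compared between females and males. None of the 9 genes passed the interaction of sex and age in α-cells (0.00707% of 14146 genes passed) or in β-cells (0% of 11693). The largest gaps by unadjusted p were ABCC8 in α-cells and KCNK16 in β-cells. ABCC8 in α-cells of females had a mean of 397 ± 128 CPM in young and 964 ± 414 CPM in old monkeys (SD, n = 4 each), and the log2 difference of 1.24 ± 0.35 missed the threshold (edgeR adjusted p = 0.416), whereas males gave 0.02 ± 0.35 (interaction -1.22 ± 0.49, edgeR adjusted p = 0.872). KCNK16 in β-cells gave 0.74 ± 0.26 in females and -0.23 ± 0.26 in males (interaction -0.97 ± 0.37, edgeR adjusted p = 1.00, unadjusted edgeR p = 0.0154). CACNA1D in β-cells gave 0.70 ± 0.44 in females and -0.72 ± 0.43 in males (interaction -1.41 ± 0.62, edgeR adjusted p = 1.00, unadjusted edgeR p = 0.0312).

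**Figure D4:**
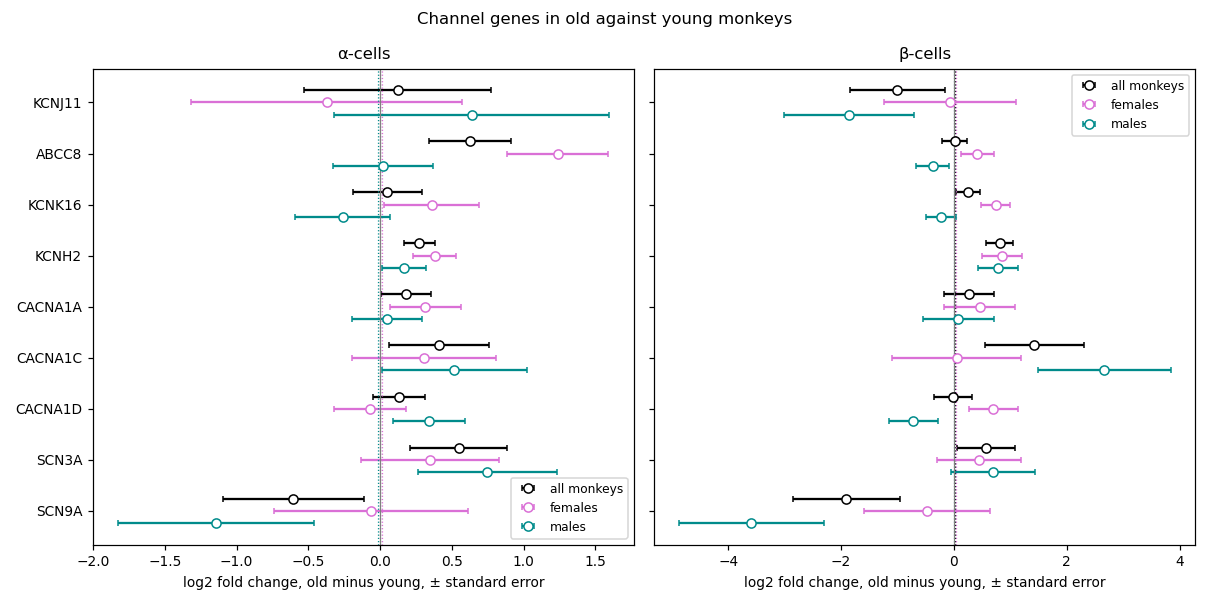
Log2 fold change of old minus young monkeys (horizontal axes, of different range) for each channel gene in α-cells (left) and β-cells (right), from all monkeys and within each sex, with standard errors as bars. Open points did not pass the test, and no point is filled. KCNH2 in β-cells lay at 0.81 with both sexes close to it, and ABCC8 in α-cells at 1.24 in females and 0.02 in males.

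Monkeys differed from each other more than libraries of a monkey did for several of these genes. For ABCC8 in α-cells the SD of log2(CPM + 1) was 0.15 between the libraries of a monkey (median over 16 monkeys) and 0.72 between monkeys. For KCNK16 it was 0.15 and 0.57, and for SCN9A 0.43 and 1.08. For KCNH2, at 0.32 and 0.25, and CACNA1D, at 0.42 and 0.34, the SD between libraries was the larger. Each monkey's level summed all its libraries, and single libraries carry more counting error. These SDs therefore cannot show whether monkeys varied more than libraries for KCNH2 and CACNA1D. The single-library values of ABCC8 ranged from 174 to 1591 CPM.

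Genes whose levels followed those of the channels were listed by Pearson's r over the 49 sums, as a description, since the sums share monkeys, types and depth. CACNA1A had the closest companions, CCNE1 (r = 0.90), BTG1 (0.82) and MAN2C1 (0.80). KCNK16 was followed by HOPX (0.77), an unnamed gene (0.75) and DIAPH1 (0.74), CACNA1C by GNG12 (0.75), UNK (0.66) and NANOG (0.63), and SCN9A by FXYD3 (0.73), ARFGEF3 (0.71) and STMN2 (0.70). ABCC8 was followed by FXYD2 (0.70), TNFAIP8 (0.66) and CALML4 (0.66), and KCNH2 by HK3 (0.69), TXNDC11 (0.68) and CTSD (0.68). For KCNJ11 the list was ZNF440 (0.72), an unnamed gene (0.70) and MICALL1 (0.62), for CACNA1D it was SLC4A1AP (0.71), CCDC142 (0.66) and PTPA (0.64), and for SCN3A 2 unnamed genes (0.64 each) and LRRC9 (0.62). Among the 9 channel genes the highest r was that of ABCC8 with KCNH2 (0.62) and the lowest that of KCNJ11 with CACNA1A (-0.49).

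The other channel and calcium genes were examined in lists for β- against α-cells. Of 51 other potassium channel genes tested (89 listed), 5 were higher and 19 lower in β-cells, with a median log2 difference of -1.14 against -0.20 for all genes. Of all 14648 genes, 25.7% were called, 1105 higher and 2654 lower, and the counts of the lists that follow stand beside this share. KCNMA1, the large-conductance calcium-activated channel, was higher, at 46.7 ± 21.3 CPM in β- and 6.54 ± 3.82 CPM in α-cells (SD, n = 16 each; log2 difference 2.92 ± 0.42, edgeR adjusted p = 2.48e-07). KCNH6, a relative of hERG, was lower by a log2 difference of -2.80 ± 0.37 and KCNIP1, an auxiliary subunit, by -2.85 ± 0.48. The other KATP subunits, KCNJ8 and ABCC9, did not pass. In β-cells the largest age difference among these lists was that of KCNJ8, at 7.64 ± 6.60 CPM in old and 0.401 ± 0.622 CPM in young monkeys (SD, n = 8 each; edgeR adjusted p = 0.0984), a gene chosen after its values were seen.

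All 4 other calcium pores tested (7 listed) passed. CACNA1E, the R-type pore, was higher in β-cells (26.0 ± 18.7 against 12.7 ± 10.3 CPM, SD, n = 16 each; log2 difference 1.16 ± 0.40, edgeR adjusted p = 0.0238). CACNA1H, a T-type pore, and CACNA1F, an L-type pore, were lower, by log2 differences of -1.53 ± 0.28 and -1.61 ± 0.45. Of 13 auxiliary calcium channel subunits tested, 1 was higher and 7 were lower in β-cells (25.7% of all genes called in either direction), with a median of -1.79. CACNA2D2 had 8.19 ± 4.63 CPM in β- and 83.0 ± 33.5 CPM in α-cells (SD, n = 16 each; log2 difference -3.50 ± 0.26, edgeR adjusted p = 7.49e-16), CACNG4 a log2 difference of -3.83 ± 0.37 and CACNB2 one of -1.21 ± 0.34. These subunits help to bring calcium pores to the membrane and set their gating.

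Of 8 other sodium channel genes tested, 1 passed, the auxiliary subunit SCN3B (log2 difference -2.53 ± 0.43). Of 10 other genes of excitability, 4 were higher and 3 lower, again beside 25.7% of all genes. TRPM5, a cation channel opened by calcium, had 14.5 ± 10.3 CPM in β- and 0.219 ± 0.389 CPM in α-cells (SD, n = 16 each; edgeR adjusted p = 6.84e-11), and the pacemaker channel HCN4 and the gap junction gene GJD2 were higher by log2 differences of 2.08 ± 0.51 and 1.22 ± 0.39. Of 21 calcium-handling genes 4 were higher and 7 lower (25.7% of all genes called), and the calcium release channels of the endoplasmic reticulum split by gene. ITPR1 had 5.09 ± 3.51 CPM in β- and 142 ± 41.4 CPM in α-cells, ITPR2 77.2 ± 38.5 and 3.39 ± 2.46 CPM, and ITPR3 29.5 ± 24 and 3.58 ± 3.57 CPM (SD, n = 16 each; edgeR adjusted p = 1.03e-17, 1.95e-12 and 2.22e-06). For age, 0 genes of these lists passed in α- or β-cells.

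**Figure D5:**
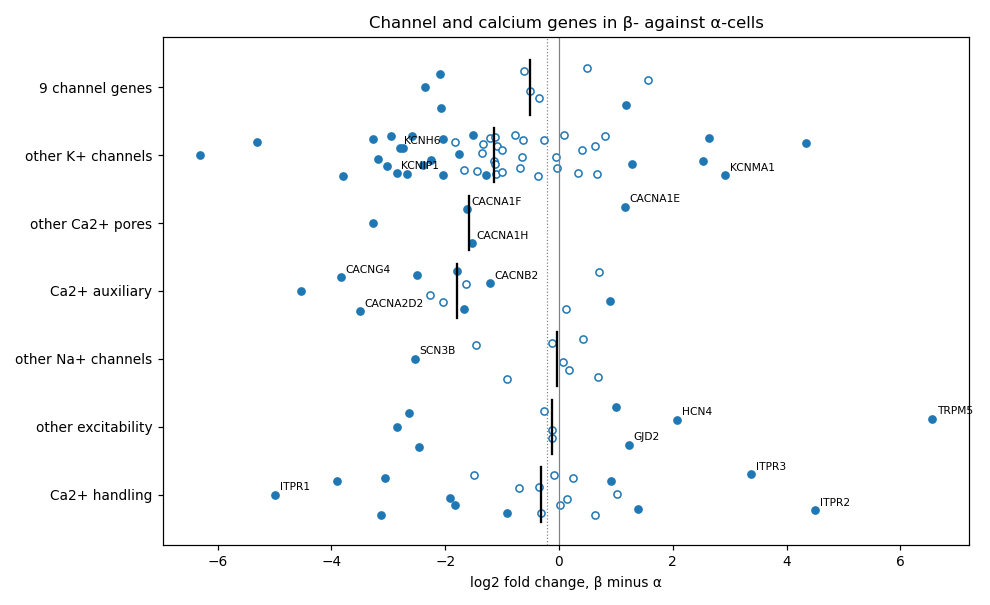
Log2 fold change of β- minus α-cells (horizontal axis) for the 9 channel genes and 6 other lists of channel and calcium genes (rows). Each point is a gene, filled where it passed the test, and named where the rule for named genes picked it. Black bars are list medians and the dotted line is the median of all genes, -0.20. The auxiliary calcium channel subunits had the lowest list median, -1.79, and ITPR1 and ITPR2 lay at -4.99 and 4.5.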

How the data were processed

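UMI counts per gene and cell, as deposited by the authors in 64 tables, were used without change. Per the labels and the study's methods, cells were barcoded and counted after alignment with TopHat2 (version 2.0.12) to the Macaca_fascicularis_5.0 genome, and CASAVA (version 1.8) is also named in the submitters' processing notes. Spike-in RNAs (95 rows, 5.41% of UMIs) were left out of CPM totals and tests but counted toward the UMI filters on cells. Of the columns of values, 0 were unmapped.

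Barcodes passing 800 genes and 10000 UMIs were kept (5908 of 6141), giving library totals of 3.73e+06 to 9.44e+06 UMIs. The study's filter on mapping rate was not applied. Each cell took the type of its highest hormone. The libraries reuse the same 96 barcode sequences, and 0 cell names were shared. No doublet caller was run; an alternative left out cells above the 95th percentile of UMIs of their type. Age and sex of each monkey followed the labels.

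Summed counts per monkey and type (at least 5 cells) were tested with the edgeR quasi-likelihood test (edgeR 4.0.16, R 4.3.3) after TMM normalization and its filter on low counts, with Benjamini-Hochberg adjustment over all genes of a comparison. Types were compared with the monkey as a block, since sums of 1 monkey come from the same animal. Ages were compared within a type with sex as covariate, and interactions in their own models. The scripts were tested on simulated data. Shares have exact (Clopper-Pearson) 95% intervals. Thinning used a fixed depth of 10000 UMIs.

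The 9 genes, the gene lists and the marker lists were chosen with earlier results of these data known. All 9 genes are named. In each other list, up to 3 genes were named, those with the largest change among genes past the test with a mean of at least 10 CPM in the higher group, and the 3 closest genes by Pearson's r of log2(CPM + 1) were named for each channel gene. KCNJ8 and ABCC9, which did not pass, were named outside this rule. Alternatives were DESeq2 (1.42.0), RLE size factors, no filter on low counts, hormones left out, thinned cells, a clear highest hormone (at least 4 times the next), no cells of most UMIs, a stricter cell filter (over 2000 genes and 20000 UMIs), at least 20 cells per sum, other covariates or blocks, and each monkey left out. Leaving out the non-endocrine-like cells was chosen after seeing the data. Tables were handled with Python 3.11.15, numpy 2.4.6, pandas 2.3.3 and scipy 1.17.1, and figures drawn with matplotlib 3.10.9.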

Additional observations from a re-analysis of the deposited data

Results flagged for a closer look

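In 11 of 61 groups of 4 to 8 monkeys the highest or lowest level of a channel gene stood apart from the others by Dixon's criterion. The criterion flags about 1 in 20 groups of normally distributed values. CPM of low counts need not be so distributed, so the rate to compare with 11 of 61 is not known. Most of the flagged values rested on few UMIs. KCNJ11 stood out in α-cells of young female 1 at 4.34 CPM (95 UMIs, 68 of them in 1 cell) and in β-cells of young male 3 at 31.4 CPM (77 UMIs in 1 cell).

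CACNA1C stood out in 4 groups. It had 23.6 CPM in α-cells of old female 1 (333 UMIs, next monkey 8.49 CPM), 4.82 CPM in β-cells of young female 2 (3 UMIs), 16.9 CPM in β-cells of old male 4 (28 UMIs) and 81.5 CPM in PP-cells of old male 2 (17 UMIs in 1 cell). CACNA1D had 180 CPM in δ-cells of old male 2 (50 UMIs, next monkey 14.2 CPM).

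KCNK16 had its lowest young α-cell level in young female 1, at 272 CPM against 407 CPM in the next monkey. Its highest old δ-cell level was in old female 1, at 433 CPM against 220 CPM (306 UMIs, 234 of them in 1 cell). SCN9A had 76.2 CPM in α-cells of young male 4 (1617 UMIs, next monkey 38.4 CPM) and 69.4 CPM in PP-cells of old female 2 (104 UMIs, next monkey 26.7 CPM).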

How the results depend on the processing

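ABCC8, CACNA1A, CACNA1C and SCN9A stayed past the threshold and kept their direction for β- against α-cells in 11 of 11 other settings and without each of the 16 monkeys. With at least 20 cells per sum the count of channel genes called was 8 for β against α, where 6588 of all 16391 genes were called against 3759 of 14648 as reported, and 1 for PP against α, which rested on 1 PP-cell sum. For δ against α it was 1 with DESeq2, RLE size factors, no filter on low counts, hormones left out, the stricter cell filter or no replicate block (monkey), and 0 with a clear highest hormone (2 δ-cell sums). Without each monkey in turn the counts ranged from 4 to 5 for β against α, 1 to 4 for δ against α (4 without old male 2), 3 to 4 for PP against α, 3 to 5 for β against δ, 3 to 4 for β against PP and 3 to 5 for δ against PP. With age and in the interactions they were 0 throughout. Some δ- and PP-cell fits could not be run with a clear hormone or at least 20 cells, for too few sums.

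No age difference was called under any setting, and some changed sign. KCNJ11 in α-cells was -0.036 without the sex covariate and -0.21 to 0.73 with monkeys left out. KCNJ11 in β-cells was 0.35 without young male 3 (range -1.27 to 0.35). KCNK16 in α-cells ranged from -0.073 to 0.19 with monkeys left out. ABCC8 in β-cells was -0.40 with a clear hormone, -0.0021 without cells of most UMIs and -0.0023 with the stricter filter, and -0.068 to 0.15 with monkeys left out. With a clear hormone CACNA1A in β-cells was -0.38 and CACNA1D -0.62, the latter -0.15 to 0.18 with monkeys left out. The monkey numbers of the labels do not pair different animals; with them as a replicate block, the log2 age difference was -0.039 for KCNK16 in α-cells, -0.019 for ABCC8 and 0.014 for CACNA1D in β-cells. The cause of these shifts was not tested.

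Over all genes, DESeq2 called 26 with age in α-cells, 41 in β-cells, 3 in δ-cells and 1 in PP-cells, 8 and 2 for sex by age in α- and β-cells, and 14 for type by age, against 0, 5, 0, 0, 1, 0 and 0 with edgeR. For δ against PP it called 2117 against 1298. With a clear hormone 1123 genes were called for δ against α. The age tests rested on 11 δ-cell and 6 PP-cell sums, and low counts kept KCNJ11 and CACNA1C out of both. In detection, 10 of 36 shares exceeded the non-endocrine-like cells after thinning and 9 with the stricter filter, against 12 as reported. No count over all genes was made to set beside these.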
